A study of Rattus norvegicus with 16 samples.

Results

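Zfp354a encodes a zinc finger transcriptional repressor, also catalogued as Kid1, Tcf17 and Znf354a, and its liver transcript was lower on every array of rats given any of 3 dithiolethiones than on every vehicle array. It was picked for description because its values were already known to stand out in these data, so its levels and differences are given as a description with their errors, with no test. The gene was found by its symbol in the array platform's annotation, which assigned it to 1 probe set of 8740 and thus made it 1 of 4736 genes with a symbol of their own. A probe set entered the fits if 4 or more arrays placed it above their 40th percentile. This kept 5323 of them, and Zfp354a exceeded that percentile on all 16 arrays. No second probe set of Zfp354a was on the array, so its values rest on a single set of probes.

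The study measured liver RNA of 16 male F344 rats, an inbred strain, on 1-colour oligonucleotide arrays, 1 array for each rat and 4 rats in each group. The rats were 6 weeks old on arrival, singly housed, kept on one diet and assigned to groups at random. The D3T group received 3H-1,2-dithiole-3-thione, the OLT group oltipraz and the TBD group the 5-tert-butyl derivative of D3T, each at 0.3 mmol/kg by gavage in a saturated sucrose solution. The vehicle group received the sucrose alone, although its arrays are titled as untreated. Dosing ran to 3 doses over 5 days, and the animals were killed 24 h after the final one. D3T is the unsubstituted dithiolethione ring, oltipraz carries a methyl and a pyrazinyl group on it, and TBD carries the tert-butyl group alone. A single dose level and a single time were used, and the RNA came from whole liver, so fewer cells of a type and less RNA per cell cannot be told apart.

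Zfp354a belongs to the C2H2 zinc finger proteins that carry a KRAB domain, the largest class of transcriptional repressors in mammals. Their zinc fingers contact DNA, and the KRAB domain recruits the corepressor Trim28, also called KAP1, which brings in histone-modifying enzymes such as Setdb1 and the heterochromatin protein HP1. The gene was first described in rat kidney as Kid-1, a name that stands for kidney, ischemia and developmentally regulated gene, and its transcript falls in the injured renal tubule. In cultured cells the overproduced protein disrupts the nucleolus. Dithiolethiones are cancer-preventive compounds known for raising detoxification enzymes in rat liver through the transcription factor NRF2.

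The gene lies on rat chromosome 10, at positions 35897217 to 35909063 of assembly GRCr8, a span of 11847 bases. The RefSeq sequence of the 204 bases just before that annotated start, on the plus strand of GRCr8 at chr10:35897013-35897216, is shown because every result below turns on this 1 transcript. No letters are capitalised, since none of the searched motifs was found in it.
Zfp354a: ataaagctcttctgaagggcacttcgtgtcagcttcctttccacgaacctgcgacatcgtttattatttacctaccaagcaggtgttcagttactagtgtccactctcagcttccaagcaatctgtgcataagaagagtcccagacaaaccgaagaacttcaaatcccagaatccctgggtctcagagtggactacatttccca
The 4 motifs searched on both strands were TGACNNNGC, the core of the antioxidant response element bound by NRF2; GCGTG, the core bound by the aryl hydrocarbon receptor; CACGTG, the E-box; and GGGCGG, the GC box bound by Sp1. TGACNNNGC occurred in 7.96% of 33469 promoter windows of the same length in the RefSeq table, GCGTG in 21.6%, CACGTG in 4.31% and GGGCGG in 24.8%. These letters are absent from this window, which says nothing about binding elsewhere or of other factors. Its GC content was 46.1%, against a median of 51.0% over all windows.

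Zfp354a gave log2 expression values of 6.53, 7.66, 7.13 and 5.64 on the 4 D3T arrays, 7.57, 4.16, 5.89 and 4.42 on the OLT arrays, 4.19, 4.23, 4.30 and 3.41 on the TBD arrays, and 8.63, 9.41, 8.96 and 9.33 on the vehicle arrays. All 12 compound arrays lay below all 4 vehicle arrays, as they did for 5.02% of tested probe sets. The D3T arrays lay above every TBD array as well, whereas the OLT values stretched across both and overlapped them. Group means were 6.74 ± 0.87 in D3T, 5.51 ± 1.57 in OLT and 4.03 ± 0.42 in TBD, against 9.08 ± 0.36 in vehicle (SD, n = 4 arrays each). The order of the means was therefore TBD lowest, then OLT, D3T and vehicle, with OLT not separated from either of its neighbours among the compounds.

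**Figure D1:**
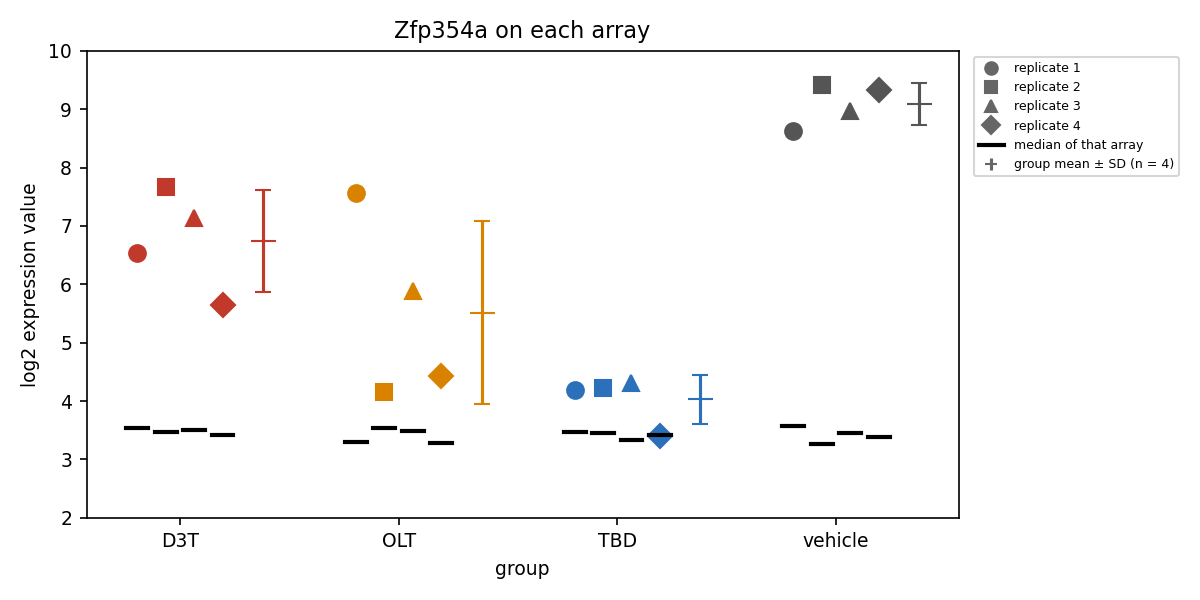
Log2 expression value of Zfp354a on each array, by group, with the median of all probe sets of the same array as a short black line and the group mean ± SD beside the points (n = 4). The 12 compound arrays lie below the 4 vehicle arrays, the OLT points spread from 4.16 to 7.57, and TBD replicate 4 lies at its array's median.

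The place of the probe set within each array gives the same order. It ranked at the 76.4th to 84.6th percentile of all probe sets on the D3T arrays, the 63.5th to 83.4th on the OLT arrays and the 49.8th to 67.6th on the TBD arrays, against the 88.6th to 90.6th on the vehicle arrays. Percentiles depend on the brightness of these probes and do not rank Zfp354a against other transcripts. The value stood 2.22 to 4.20 log2 units above the array median with D3T, 0.62 to 4.28 above it with OLT and between 0.01 below and 0.97 above it with TBD, against 5.05 to 6.14 above it with vehicle. With TBD the signal was thus near the middle of the array, where values made with GCRMA, the authors' method, compress differences.

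Relative to vehicle, the Zfp354a mean differed by -2.34 ± 0.61 log2 units with D3T (SE, 95% interval -3.64 to -1.04), which is 5.06-fold lower. With OLT the difference was -3.57 ± 0.61 (interval -4.87 to -2.27), or 11.9-fold lower. With TBD it was -5.05 ± 0.61 (interval -6.35 to -3.75). No fold is given for TBD, because its values lay near the array median, and this difference depends on how the deposited values treat background. OLT replicates 2 and 4, at 0.62 and 1.14 log2 units above their array medians, lay near that level too. The OLT fold therefore depends in part on the same treatment of background. Each error is the SE of a fit whose spread is shared by all 4 groups, although the groups' own SDs ran from 0.36 to 1.57, so it overstates the error of TBD against vehicle and understates that of comparisons with OLT.

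Among the 3104 named genes tested, each represented by its brightest probe set, Zfp354a had the most negative difference with OLT and with TBD. With OLT the next gene was Sqle, a cholesterol synthesis enzyme, at -3.56, followed by Got1, an aspartate aminotransferase, at -3.38. With TBD the next were Sqle at -3.10 and the collagen gene Col1a1 at -2.84, so Zfp354a lay well apart from its neighbours there and level with them in OLT. With D3T it ranked 13 of 3104, between the sulfotransferase Sult2a6 at -2.44 and the organic anion transporter Slco1a1 at -2.22. Over all 5323 tested probe sets, which include unnamed ones and further probe sets of the same genes, Zfp354a ranked 31 with D3T, 2 with OLT and 1 with TBD. For the background, 12.2% of tested probe sets were lower by limma with D3T (Benjamini-Hochberg adjusted p under 0.05), 7.89% with OLT and 9.47% with TBD. Arrays wholly below vehicle were found for 15.8%, 9.79% and 10.3% of probe sets in the same order of compounds, and for all 3 compounds at once in 267 probe sets.

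**Figure D2:**
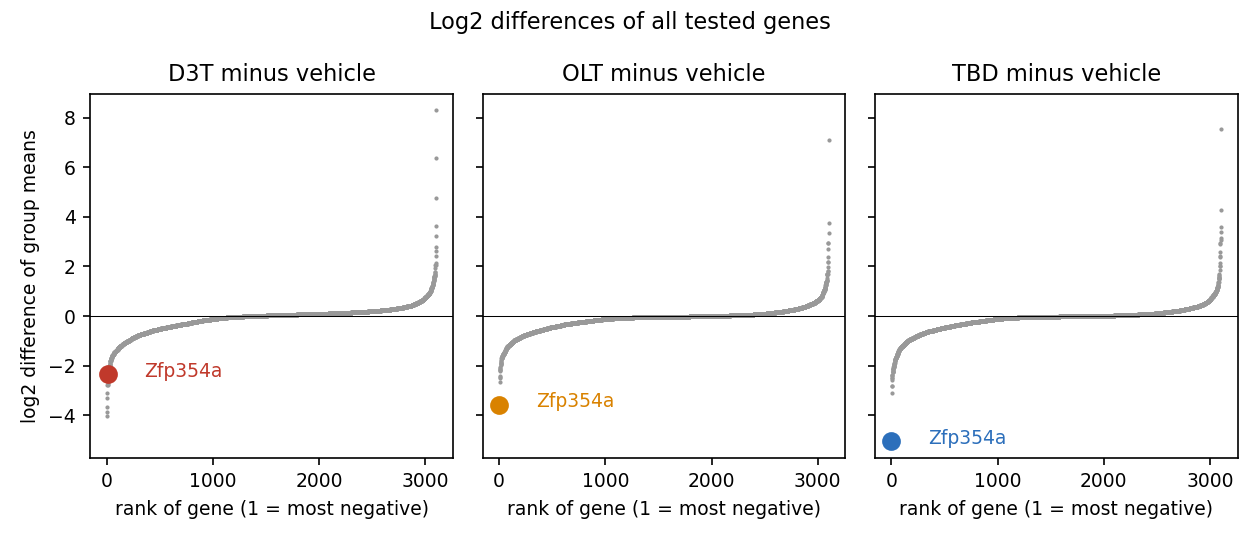
Difference of group means (log2) for each of 3104 tested genes, ordered from the most negative, in 1 panel for each compound against vehicle, with Zfp354a as the large point. Zfp354a takes rank 13 with D3T at -2.34, and rank 1 with OLT at -3.57 and with TBD at -5.05.

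Between the compounds, which were given at the same dose and time, the 3 pairs were set side by side. D3T exceeded TBD by 2.71 ± 0.61 (interval 1.41 to 4.01), with no overlap of arrays, beside 6.95% of probe sets with D3T wholly above TBD, and this was the most positive difference of any tested gene between these groups. D3T exceeded OLT by 1.23 ± 0.61 (interval -0.07 to 2.53), an interval that includes 0, and the arrays overlapped. TBD was below OLT (difference -1.48 ± 0.61, interval -2.78 to -0.18), and again the arrays overlapped. Among the 3104 genes, each by its brightest probe set, only Cyp1a2, a cytochrome P450, had a more negative TBD minus OLT difference, at -2.53. Over all 5323 tested probe sets, counted from the most negative, Zfp354a ranked 6 for TBD minus OLT. For D3T minus TBD it ranked 5322, so it was not the most positive probe set there. As background, limma called 1.07% of tested probe sets between D3T and OLT, 0.658% between D3T and TBD and 0.0564% between TBD and OLT. Both comparisons with OLT moved with single arrays: D3T minus OLT ran from 0.78 without OLT replicate 2 to 1.92 without OLT replicate 1, and TBD minus OLT came to -0.79 without OLT replicate 1.

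The spread of Zfp354a within a group also differed between the compounds. Within OLT the arrays spanned 3.41 log2 units, and 99.7% of tested probe sets had a smaller SD within that group. Within D3T the corresponding share was 99.3%, against 80.2% within TBD and 82.4% within vehicle. Zfp354a thus varied more between animals than almost any other probe set in the D3T and OLT groups, while the TBD and vehicle animals were not unusual to that degree. The TBD arrays, and OLT replicates 2 and 4, lay near their array medians, where the deposited values compress differences. The smaller spread with TBD therefore does not show that TBD lowered the gene more evenly. OLT replicate 1, the OLT array nearest to vehicle, and TBD replicate 4, the lowest array of all, were also the pair that stood apart from the rest along the second principal component of all tested probe sets. Without both, the differences from vehicle were -4.26 for OLT and -4.84 for TBD, D3T minus OLT was 1.92, D3T minus TBD 2.50 and TBD minus OLT -0.58.

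Falls graded between the compounds in this way, a pattern taken from the Zfp354a values themselves, were counted over the tested probe sets. Of the 267 probe sets with all 3 compounds wholly below vehicle, 10 had the TBD arrays wholly below the D3T arrays too, which is 0.188% of those tested, and Zfp354a is 1 of the 6 genes they stand for. The others are Gys2, the liver glycogen synthase; Cpt1a, which admits fatty acids to mitochondria; Aldh3a2, a fatty aldehyde dehydrogenase; Rev1, a translesion DNA polymerase; and Chn2, a Rac GTPase-activating protein. Their group means were closer together: Cpt1a averaged 11.21 in D3T, 10.99 in OLT and 10.49 in TBD, against 11.65 in vehicle. Chn2 averaged 5.36 in D3T, 5.14 in OLT and 4.83 in TBD, against 7.09 in vehicle. Rev1 averaged 3.81 in D3T, 3.74 in OLT and 3.69 in TBD, against 5.23 in vehicle. Its compound values lay near the array medians, and its highest TBD value, 3.74, was barely below its lowest D3T value, 3.75. A mean order of TBD, OLT, D3T and vehicle from low to high was met by 57 of the 267 probe sets, or 1.07% of those tested. Over all 5323 tested probe sets, whether or not they fell, 305 met that mean order, or 5.73%. The order of the means alone therefore does not set Zfp354a apart.

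The genes with the most similar profile were taken by Pearson's r with Zfp354a over all 16 arrays, among 3103 other genes. Such an r is driven largely by the group means, the arrays share their processing, and genes chosen by it had to follow the same order, so their values are given without a test. The 5 highest were Hacl1, the peroxisomal 2-hydroxyacyl-CoA lyase (r = 0.94), Gys2 (0.92), Nr1d2, the clock repressor REV-ERB beta (0.90), Gde1, a glycerophosphodiester phosphodiesterase (0.89), and C4h2orf68, whose role is little known (0.89). Over all genes the median r was 0.02, the 95th percentile 0.69, and 3 genes exceeded 0.9. Leaving out vehicle replicates 2 and 4, the arrays farthest from the median of Zfp354a, gave 0.92 for Hacl1, 0.90 for Gys2 and 0.87 for Nr1d2.

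Hacl1 gave 7.71, 8.66, 8.80 and 8.12 on the D3T arrays, 8.61, 7.58, 8.47 and 7.07 on the OLT arrays, 7.06, 7.08, 6.60 and 6.42 on the TBD arrays, and 8.65, 10.30, 9.88 and 9.64 on the vehicle arrays. As for Zfp354a, the TBD mean was the lowest, the lowest OLT array overlapped the TBD arrays, and OLT replicates 1 and 3 exceeded replicates 2 and 4. Unlike for Zfp354a, vehicle replicate 1 overlapped the D3T arrays. The Hacl1 differences from vehicle were -1.30 with D3T, -1.69 with OLT and -2.83 with TBD. Gys2 differed by -0.72, -1.04 and -1.25 in the same order of compounds, the first of which did not pass (limma, adjusted p = 0.0515). Nr1d2 differed by -1.65, -1.57 and -2.12. Each of these differences was smaller than that of Zfp354a under the same compound.

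Part of the likeness lay within the groups, to an unequal degree. With each group's mean removed, r with Zfp354a was 0.77 for Gys2, 0.72 for Hacl1, 0.72 for Nr1d2, 0.58 for Gde1 and 0.36 for C4h2orf68, over the same 16 arrays. These genes were picked by an r that already includes such deviations. Over the 12 compound arrays alone Hacl1 had an r of 0.90. The gene that followed the animal-to-animal differences most closely, singled out after its values were seen, was Tmem218, a transmembrane protein of the primary cilium, with an r of 0.91 within groups and 0.92 over the 12 compound arrays. Its OLT values were 6.66, 5.58, 5.93 and 5.59, in the same array order as Zfp354a, with replicates 2 and 4 nearly level, while its vehicle values lay between 6.20 and 6.30. The opposite profile was led by Litaf, a protein of endosomal membranes (r = -0.91), the glucuronosyltransferase Ugt2b1 (-0.82), the proteasome subunits Psmb5 and Psmb2 (both -0.77), and Cth, cystathionine gamma-lyase (-0.77). Within groups r was -0.61 for Litaf, but -0.02 for Ugt2b1, -0.03 for Psmb5, -0.20 for Psmb2 and 0.05 for Cth. Litaf was 1.03 log2 units above vehicle with D3T, 1.40 above it with OLT and 1.48 above it with TBD.

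**Figure D3:**
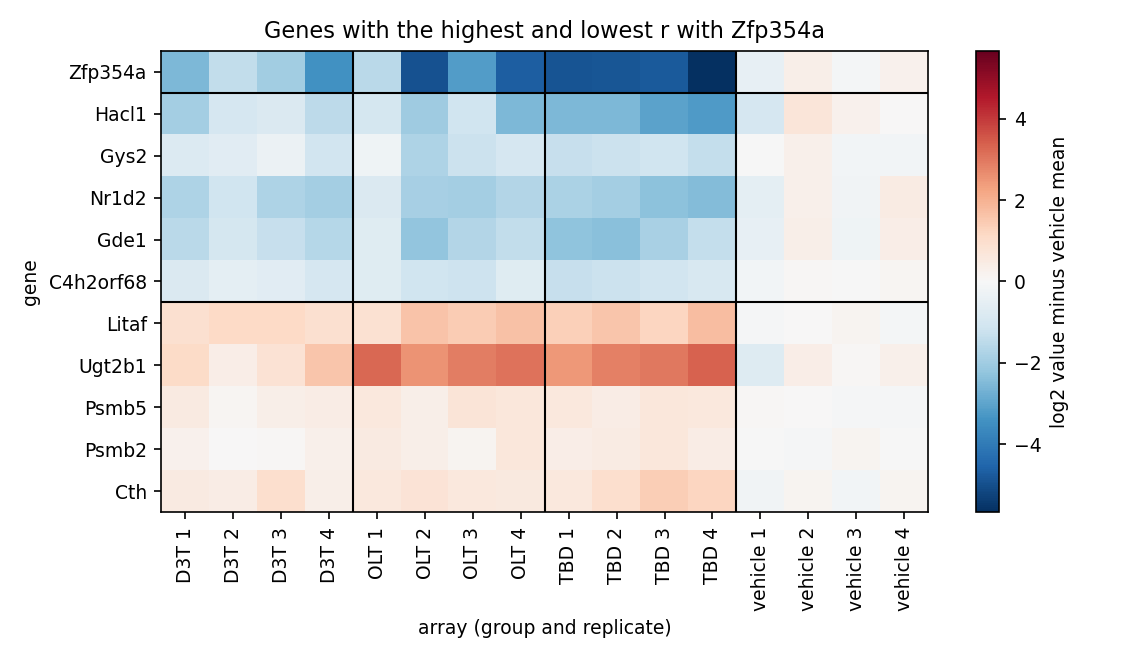
Log2 value minus the vehicle mean, by array in 4 groups, for Zfp354a, the 5 genes with the highest r and the 5 with the lowest. By group average Zfp354a is the darkest gene with each compound, from -2.34 with D3T to -5.05 with TBD. Ugt2b1 averages 2.94 with OLT and is darker than Zfp354a on OLT replicate 1. Litaf runs opposite to Zfp354a, from 1.03 to 1.48.

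Gstp1, Akr7a3, Nqo1, Gsta3 and Ephx1, enzymes that dithiolethiones are known to raise, all had their highest mean with D3T. The order of OLT and TBD differed between them. Gstp1, a glutathione transferase, gave 12.36, 12.02, 12.57 and 13.10 on the D3T arrays, 9.36, 6.61, 8.92 and 8.43 on the OLT arrays, 8.56, 10.69, 10.99 and 11.39 on the TBD arrays, and 6.33, 6.14, 6.04 and 6.02 on the vehicle arrays. It was therefore highest with D3T, the compound with the smallest Zfp354a difference, and D3T exceeded OLT by 4.18 (limma, adjusted p = 0.00232). Akr7a3, an aldehyde reductase that acts on aflatoxin dialdehyde, rose by 4.77 with D3T, 3.73 with OLT and 3.57 with TBD, with limma adjusted p of 6.08e-07, 1.22e-05 and 1.91e-05. Among the compounds its mean was thus lowest with TBD and highest with D3T, the order of the Zfp354a means. Its OLT and TBD means, 12.19 ± 0.81 and 12.03 ± 0.41 (SD), were not separated, however. The mean was lowest with OLT for Gstp1, for Nqo1 (7.99 in D3T, 6.53 in OLT and 6.95 in TBD) and for Gsta3 (11.50, 10.28 and 10.74). The Ephx1 means lay close together, at 12.95, 12.91 and 12.87 in the same order of compounds. Over a list of 42 NRF2 target genes, 26 were measured and tested, of which 13 were higher and 0 lower with D3T, 12 higher and 0 lower with OLT, and 11 higher and 1 lower with TBD (limma; 4.61%, 2.61% and 2.8% of all tested genes were higher in the same order). The list medians were 0.88 with D3T, 0.66 with OLT and 0.73 with TBD, against medians of 0.03, -0.04 and -0.02 over all genes.

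Within the OLT group the direction was the opposite of that between compound and vehicle. Zfp354a, Akr7a3, Gstp1 and Nqo1, the NAD(P)H quinone reductase, all had the same array order there, with replicate 1 highest, then 3, 4 and 2. The Nqo1 values were 7.53, 5.19, 7.03 and 6.36 on these OLT arrays. Gsta3, an alpha class glutathione transferase, and Ephx1, the microsomal epoxide hydrolase, were also highest on replicate 1 and lowest on replicate 2, with 4 above 3. In D3T the order differed: replicate 4 was lowest for Zfp354a and highest for Akr7a3, Gsta3, Gstp1 and Ephx1, while Nqo1 was highest on replicate 1. In TBD, replicate 4 was lowest for Zfp354a at 3.41 and highest for Gsta3, Gstp1 and Nqo1, while Akr7a3 and Ephx1 were highest on replicate 3. With 4 animals in a group these orders are a description of single arrays.

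**Figure D4:**
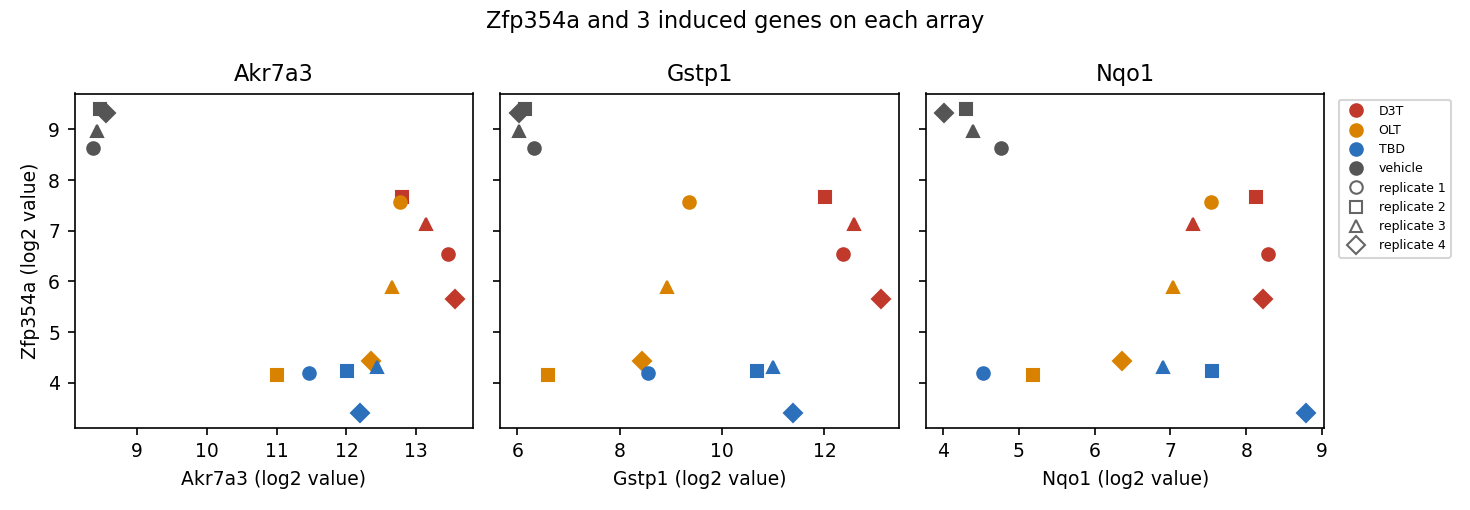
Zfp354a (log2 value, vertical) against Akr7a3, Gstp1 and Nqo1 (log2 value, horizontal) on the 16 arrays, with colour for group and marker shape for replicate. Vehicle lies upper left in each panel, the D3T points lie to the right at intermediate Zfp354a, and within OLT the points run from lower left to upper right.

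Other zinc finger genes did not fall as a class. Of 48 measured C2H2 zinc finger genes other than Zfp354a, 30 were tested. With D3T 1 was higher and 4 were lower, with OLT 0 and 3, and with TBD 0 and 4, by limma, beside 13.1% of all genes lower with D3T, 8.92% with OLT and 10% with TBD. The list medians were 0.02 with D3T, -0.03 with OLT and -0.03 with TBD, close to those of all genes. After quantile normalization of the arrays, and likewise after centring them, the D3T counts were 5 higher and 5 lower. Related members Zfp354b and Zfp354c were not analysed here.

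The members that fell with every compound were Egr1, an immediate early factor, Klf9, a Krüppel-like factor that responds to thyroid hormone and glucocorticoids, and Zfp326, a nuclear RNA-binding protein. The Egr1 differences were -2.80 with D3T, -2.46 with OLT and -2.07 with TBD, with limma adjusted p of 0.000497, 0.00202 and 0.00493, so its order of compounds was the reverse of that of Zfp354a, although 0 of its 3 differences between compounds passed. Those of Klf9 were -1.47, -1.29 and -1.50 in the same order of compounds, with limma adjusted p of 0.000223, 0.00116 and 0.000252, and those of Zfp326 were -1.03, -1.20 and -1.20. Zfp386 fell by 1.35 with TBD (limma, adjusted p = 0.0228), while its differences of -0.69 with D3T and -1.03 with OLT did not pass. Zfp622 fell by 0.27 and Zbtb38 rose by 0.47 with D3T. The calls of Egr1, Klf9 and Zfp326 held under every alternative run, and those of Zfp386, Zfp622 and Zbtb38 did not.

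**Figure D5:**
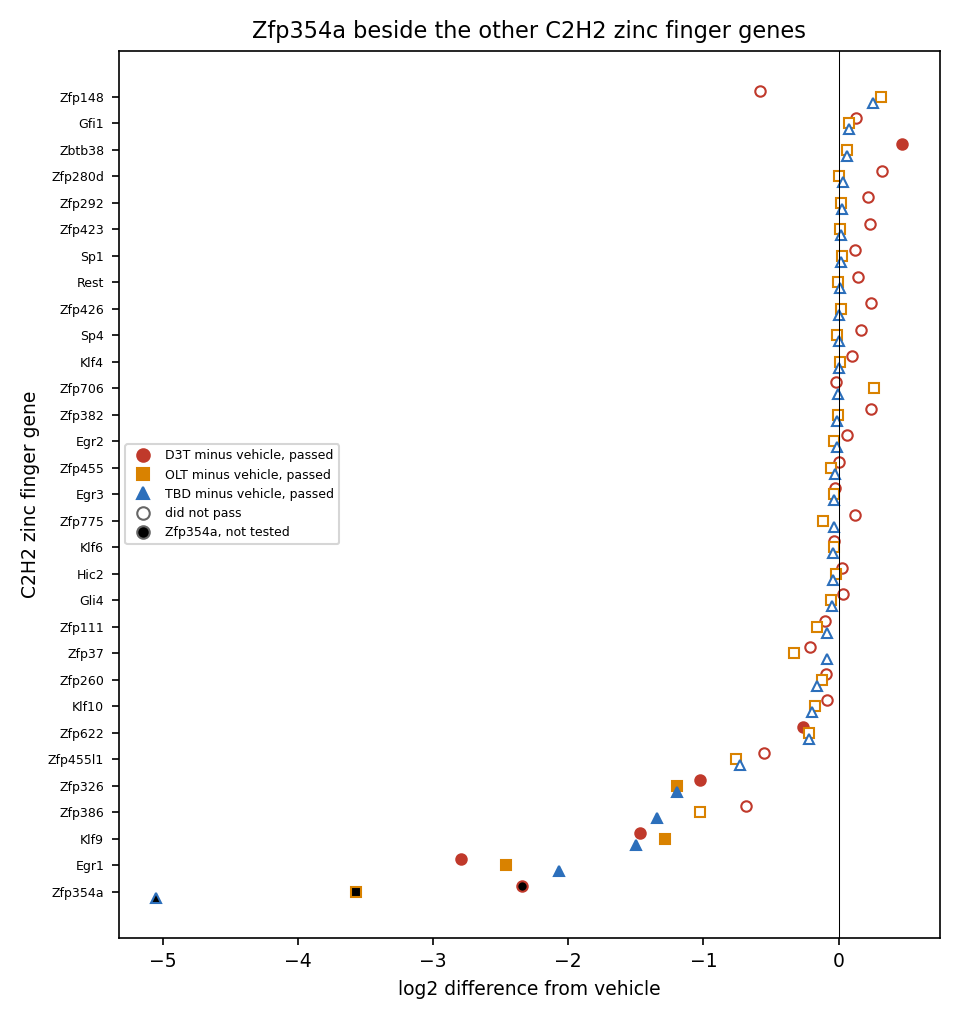
Log2 difference from vehicle for Zfp354a and the 30 other tested C2H2 zinc finger genes, with a circle for D3T, a square for OLT and a triangle for TBD. Filled symbols passed limma at an adjusted p under 0.05; most genes lie near 0, and Zfp354a, which was not tested, lies lowest with OLT and TBD, while Egr1 at -2.80 lies lower with D3T.

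The cofactors through which KRAB repressors act were sparsely measured. Of 28 listed genes, 6 were on the array and tested, which did not include Trim28 or Setdb1. They were the heterochromatin protein gene Cbx5, the deacetylase gene Hdac2, Mta1 and Rbbp7 of the nucleosome-remodelling deacetylase complex, the histone methyltransferase gene Ehmt2 and the DNA methyltransferase gene Dnmt1. By limma 0 of the 6 passed with any compound, beside 17.7% of all genes with D3T, 11.5% with OLT and 12.8% with TBD. At an unadjusted p under 0.05 there were 3 lower with D3T, 1 with OLT and 0 with TBD, and 0 higher. The share of all genes at that threshold is not given here, so these counts have no background to be read against. The nearest was Rbbp7 with D3T, at -0.68 (limma, adjusted p = 0.057). It passed in the fit of the 8 D3T and vehicle arrays alone and in those without D3T replicate 3, OLT replicate 2 or vehicle replicate 1, and Mta1 passed without vehicle replicate 1 too, which made 2 of the 6 lower there.

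The nucleolus, which the overproduced protein disrupts in cultured cells, was covered by 8 tested genes of 30 listed. With D3T 0 were higher and 1 lower, with OLT 0 and 1, and with TBD 0 and 2, which is near the 13.1%, 8.92% and 10% of all genes that were lower. Ddx21, a nucleolar RNA helicase, fell with each compound, by differences of -1.61 with D3T, -1.65 with OLT and -1.41 with TBD, with limma adjusted p of 0.0101, 0.0134 and 0.0267. Its vehicle values spread from 4.45 to 6.95, and TBD replicate 4, at 4.92, lay above vehicle replicate 1. Its compound means, 4.18 in D3T, 4.14 in OLT and 4.39 in TBD, lay near the array medians, where the deposited values compress differences. Gnl3, nucleostemin, fell by 1.07 with TBD (limma, adjusted p = 0.0494).

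Since the gene is known from injured and developing kidney, genes of tissue injury, fetal liver and proliferation were set beside it. Their counts are read against all tested genes, of which 4.61% were higher and 13.1% lower with D3T, 2.61% and 8.92% with OLT, and 2.8% and 10% with TBD. Of 14 tested injury and dedifferentiation genes, 1 was higher and 2 lower with D3T, 0 and 2 with OLT, and 1 and 2 with TBD, so the falls were near that background. The ones that fell with every compound were Lgals3, galectin 3, with differences of -1.59 in D3T, -0.77 in OLT and -0.90 in TBD, and Vim, vimentin, with -1.33, -0.98 and -0.79. The keratin genes Krt8 with D3T (0.60) and Krt18 with TBD (0.77) were the ones that rose. Of 5 tested fetal liver genes, Igf2 rose by 1.37 with D3T (limma, adjusted p = 0.000748), and 0 passed with OLT or TBD. At an unadjusted limma p under 0.05 there were 0 with OLT and 1 with TBD, a threshold for which no share of all genes is given. Of 13 tested proliferation genes, Ccnd1, cyclin D1, fell with each compound, with differences of -1.06 in D3T, -1.11 in OLT and -1.31 in TBD, and no other passed.

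Among 19 tested transcription factors of the hepatocyte, 2 were higher and 3 lower with D3T, 2 and 4 with OLT, and 1 and 5 with TBD. Beside 13.1%, 8.92% and 10% of all genes lower and 4.61%, 2.61% and 2.8% higher, the D3T falls were near the background, and those with OLT and TBD were more frequent than it. Srebf1, which drives lipid synthesis, rose by 2.41 with D3T, 1.37 with OLT and 2.93 with TBD. Cebpb, an acute phase regulator, differed by -0.87 with D3T, -1.31 with OLT and -1.04 with TBD, and Foxa3 by -0.89, -0.88 and -0.90. Nr0b2, the small heterodimer partner of bile acid signalling, differed by -1.50 with OLT and -1.71 with TBD. The clock output factor Dbp fell by 2.39 with TBD (limma, adjusted p = 0.00837). None of these falls matched that of Zfp354a in size under the same compound.

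The genes on either side of Zfp354a on chromosome 10 were hardly measured. Of the 10 nearest RefSeq genes on each side, 2 were tested, Hnrnpab, which encodes an RNA-binding protein, and the olfactory receptor gene Or1ad6. By limma 0 passed with any compound, beside 17.7% of all genes called with D3T, 11.5% with OLT and 12.8% with TBD. At an unadjusted p under 0.05 there were 1, 1 and 0 in the same order, with no share of all genes given for that threshold. Or1ad6 averaged 3.29 in D3T, 3.26 in OLT and 3.27 in TBD, against 3.29 in vehicle, near the array medians. Hnrnpab differed from vehicle by -0.50 with D3T, -0.59 with OLT and -0.40 with TBD, with limma adjusted p of 0.083, 0.059 and 0.207. Its mean was below vehicle with each compound, and its call with OLT passed in the fit of the 8 OLT and vehicle arrays alone and in those without D3T replicate 2 or without TBD replicate 4.

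Markers of the cell types that a liver sample holds were read from lists, beside 4.61% of all genes higher and 13.1% lower with D3T, 2.61% and 8.92% with OLT, and 2.8% and 10% with TBD. Of 17 tested hepatocyte markers, 3 were higher and 2 lower with D3T, 0 and 2 with OLT, and 0 and 1 with TBD, and their summed level lay at 17.91 to 18.01 log2 units in D3T, 17.68 to 17.98 in OLT and 17.81 to 18.01 in TBD, against 17.78 to 17.91 in vehicle. Hepatocyte falls were thus near the background, and the summed ranges of OLT and TBD overlapped that of vehicle. With D3T the rises were more frequent than the background. Its lowest summed level, 17.9105, lay barely above the highest of vehicle, 17.9099. Of 9 tested macrophage markers 5 were lower with each compound, and their summed level lay at 10.74 to 11.03 in D3T, 10.74 to 11.32 in OLT and 10.86 to 11.47 in TBD, against 11.63 to 12.07 in vehicle. The macrophage falls were far more frequent than the background, the level was lower on all 12 compound arrays, and its part in the Zfp354a values was not tested. Of 11 tested stellate cell and fibroblast markers 3 were lower with D3T, 2 with OLT and 3 with TBD, and of 5 tested endothelial markers 2, 0 and 1, while 0 of 10 tested markers of bile duct and of T, NK, B, neutrophil and red blood cells passed. Of 8 tested kidney tubule markers 0 passed with any compound by limma, nor did any at an unadjusted p under 0.05, for which no share of all genes is given. Their summed level lay at 6.94 to 7.02 in D3T, 6.70 to 7.02 in OLT and 6.78 to 6.94 in TBD, against 6.66 to 7.05 in vehicle.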

How the data were processed

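Per the submitters' processing notes, the authors used GCRMA, of a version not given in the sources used here, and they deposited its log2 values in 1 table. These deposited values ran from -1.21 to 15.9, were used as they stand, and compress differences near background. Array medians were 3.27 to 3.58, and 0 columns belonged to no sample. Probe sets were named from the platform annotation: of 8740, 7006 carried 1 symbol, 308 several and 1426 none, and 6985 were matched through Entrez IDs to RefSeq genes of GRCr8. Testing was limited to probe sets that 4 or more arrays placed above their 40th percentile (5323, with 3417 untested). They stood for 3104 genes, and the brightest probe set represented a gene. The fit of the 4 group means to the 16 arrays used limma 3.58.1 and R 4.3.3 (residual df 12, prior df 2.41), two-sided, with Benjamini-Hochberg adjustment over 5323 probe sets at 0.05. The script was checked on simulated data. Figures used Python 3.11.15 and matplotlib 3.10.9.

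The gene and the lists were chosen with earlier results of these data known. The genes named are the 5 with the highest and the 5 with the lowest r with Zfp354a over 16 arrays, and list members that passed. Sqle, Got1, Col1a1, Sult2a6, Slco1a1, Cyp1a2, Tmem218, the induced enzymes and the genes with graded falls were named after their values were seen. Replicates are separate animals, and their number limits the precision. Scan dates and scanner images were not used here. Alternatives were quantile normalization, centring, other filters, 2-group fits, a replicate block and leaving out each array. Same-numbered arrays did not deviate together: their correlations ran from -0.52 to 0.32.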

Additional observations from a re-analysis of the deposited data

Results flagged for a closer look

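In 4 arrays of a group, an array was listed if its gap to the nearest other exceeded Dixon's 95% critical share of the group's range. Among the 224 groups of the 56 genes screened this held for 12, and chance gives about 1 in 20. For Zfp354a it was TBD replicate 4, at 3.41 against 4.19 to 4.30 on the other TBD arrays. The same TBD array was lowest for Dbp, at 4.60 against 6.49 to 6.84, and for Srebf1, at 6.24 against 7.00 to 7.10, and it was highest for Sqle, at 5.90 against 2.90 to 3.00. OLT replicate 1 was highest for Sqle, at 3.69 against 3.02 to 3.12.

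The other single arrays concerned other genes. Egr1 was lowest on D3T replicate 2, at 5.04 against 6.44 to 6.63, and Nqo1 on D3T replicate 3, at 7.29 against 8.13 to 8.29. Hdac2 was lowest on OLT replicate 2, at 6.23 against 6.58 to 6.64. TBD replicate 3 was highest for Mta1, at 5.41 against 4.85 to 4.92, and lowest for Or1ad6, at 3.17 against 3.29 to 3.31. Foxa3 was lowest on vehicle replicate 1, at 4.84 against 5.75 to 5.85, and Dbp highest on vehicle replicate 4, at 9.30 against 8.18 to 8.36.

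The tested genes among those named that differed between 2 compounds by limma were these. Gstp1 was 4.18 log2 units higher with D3T than with OLT (adjusted p = 0.00232). Ugt2b1 was lower with D3T than with OLT, by -1.99 (adjusted p = 0.00232), and than with TBD, by -1.95 (limma, adjusted p = 0.00405). Lgals3 was lower with D3T than with OLT, by -0.82 (limma, adjusted p = 0.0403). Igf2 was higher with D3T than with OLT, by 1.00 (limma, adjusted p = 0.0440). Ptgr1, an alkenal reductase, was higher with D3T than with TBD, by 2.02 (limma, adjusted p = 0.00984). Its means were 9.95 in D3T, 8.79 in OLT and 7.93 in TBD, against 9.66 in vehicle. The difference thus came mostly from a TBD mean below vehicle.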

How the results depend on the processing

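Of 150 values of the 6 Zfp354a differences under the alternatives, 85 were identical to the reported ones, since those settings change only the error or arrays outside the pair, and the 65 that moved kept their sign. With 1 array left out, D3T minus vehicle ran from -2.65 to -1.97, OLT minus vehicle from -4.26 to -3.12 and TBD minus vehicle from -5.20 to -4.84. Quantile normalization gave -2.16, -3.46 and -4.90, and centring each array -2.40, -3.55 and -5.04. Counts of changed probe sets with 1 array left out ran from 689 to 1139 for D3T minus vehicle, 422 to 714 for OLT minus vehicle, 462 to 814 for TBD minus vehicle, 30 to 84 for D3T minus OLT, 19 to 41 for D3T minus TBD and 3 to 6 for TBD minus OLT, against 981, 600, 693, 57, 35 and 3. Those over 1.5 times lower were, for D3T minus OLT, 36, 33 and 30 without D3T replicates 1, 3 and 4 and 33 without OLT replicate 4, and, for D3T minus TBD, 23 without vehicle replicate 2, 23 and 19 without D3T replicates 2 and 3, and 19 and 22 without TBD replicates 3 and 4; TBD minus OLT came to 6 without TBD replicate 4. Quantile normalization gave 92 for D3T minus OLT. Centring gave 361 for OLT minus vehicle, 426 for TBD minus vehicle and 13 for D3T minus TBD, and fits of 8 arrays gave 361 for TBD minus vehicle and 8 for D3T minus TBD, with fewer samples in the fit. Leaving out OLT replicate 1 and TBD replicate 4 together, chosen after seeing the data, gave 88 for D3T minus OLT. Where no cause is named, the cause was not tested. The share of calls against vehicle that were higher moved from 33.5% with D3T, 30.0% with OLT and 27.3% with TBD as deposited to 52.9%, 46.5% and 44.9% after quantile normalization and to 43.8%, 41.8% and 33.6% after centring. With the replicate block the counts were 888, 526, 630, 55, 29 and 3, and the Zfp354a differences were unchanged; 8 of 24 same-numbered pairs correlated above 0.1, and 5 of 16 arrays correlated best with their own number. Of 4119 values of the named genes under the alternatives, 247 lost the call, 47 gained one and 0 turned; those that lost it include Hacl1 and Ugt2b1 with D3T.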
